A study of Homo sapiens with 15 samples.

Results

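The ubiquitin editors and TNF receptor-associated factors around NF-kappa B were followed in THP-1 cells, a human monocytic leukaemia cell line, by RNA sequencing. The 10 genes were *TNFAIP3*, *TNIP1*, *TNIP2*, *TNIP3*, *CYLD*, *OTULIN*, *TRAF1*, *TRAF2*, *TRAF3* and *MALT1*. They were taken by gene symbol from a table of 60286 genes. The rule itself uses no measured value, but the 10 genes were chosen with earlier results of these data known. All 10 genes were among the 17198 genes with enough counts to be tested.

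The study asked whether bacterial extracellular vesicles (BEVs) isolated by precipitation with ε-poly-L-lysine (PL) act on cells like those isolated by ultracentrifugation (UC). The 15 libraries formed 5 groups of 3. Cells of the NC group received PBS and no BEVs. EUC and EPL cells received *E. coli* BEVs at 1 μg/mL, prepared by UC and PL respectively. SUC and SPL cells likewise received *S. aureus* BEVs, but at 10 μg/mL. Species and dose therefore changed together and cannot be told apart. The incubation lasted 6 h by the methods of the study, while the labels give day 0 for every library. All groups were the same unmodified cell line at one time, and the labels do not say whether the 3 libraries of a group came from separate cultures. P-values measure only the spread between these libraries, which may be technical.

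NF-kappa B signalling from Toll-like and TNF receptors runs through ubiquitin chains, which serve as scaffolds for the kinases that free the transcription factor. A20, the product of *TNFAIP3*, edits these chains together with the ABIN proteins encoded by *TNIP1*, *TNIP2* and *TNIP3*, and CYLD and OTULIN are deubiquitinases that take them apart. TRAF2 and TRAF3 are adaptor ligases that hold the NIK kinase at a low level, and TRAF1 is a family member without the RING domain of a ligase. MALT1 works on the other side, as a paracaspase that can cleave A20 and CYLD. Several of these genes are themselves known targets of NF-kappa B in monocytes, so that the pathway induces its own brakes.

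The libraries held 14399421 to 16637345 counted reads (median 15831655). Values are given as CPM, the counts scaled to a common library size after TMM normalization. Only the cell type markers in this paragraph were scaled by the total counts, without TMM. The TMM factors were 1.07 to 1.09 in NC and 0.915 to 1.01 in the stimulated libraries, so marker levels are not on the scale of the other values. A total of 9 of 10 monocytic marker genes had a median of at least 1 CPM, while *FCN1* had at most 2 counts in a library. Their summed level was 1470 to 1480 CPM in NC and 1820 to 2240 CPM in the stimulated libraries, and the part of this rise in the results was not tested. The T cell, epithelial and erythroid marker lists each summed to less than 1 CPM in every library. *CD3D*, *CD3G*, *KRT19* and *HBB* had 0 counts in every library. The NK cell list summed to 25.8 to 28.4 CPM in NC and 22.8 to 29.7 CPM in the stimulated libraries, nearly all from *NCAM1* and *NKG7*. Within the groups, EUC3, EPL1 and SUC3 lay at one end of the first principal component of the deviations from the group means. This component held 34.8% of that variance. They are called the libraries that stood apart, with scores of -43.9, -32.2 and -31.7. Deviations within a group offset each other, and EUC1 lay at the other end, at 36. Only EUC3, EPL1 and SUC3 were left out together. Results that rest on these 3 libraries are given with and without them.

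The promoters of the 10 genes were searched for the kappa B consensus, the motif that NF-kappa B dimers bind, since the genes that rose most are known NF-kappa B targets. RefSeq (GRCh38.p14) listed 17 transcription starts for them, and the 250 bases before each start were read on both strands. A kappa B match stood before at least one start of 5 of the 10 genes and before 6 of the 17 starts. Among all genes listed with promoters, 11.8% of 27305 held a match, as did 10.0% of 35116 starts. The AP-1 motif TGANTCA (a palindrome, and a motif that cannot lie inside a kappa B match) was found before none of the 10 genes and before 8.1% of all genes. Among only 10 genes, such an absence cannot be told apart from that share. The stretches that held the matches are shown 5′ to 3′ on the strand of the gene, with the match in capitals. They lie at chr6:137867114-137867213 (+ strand) for *TNFAIP3*, chr5:151081057-151081086 (- strand) for *TNIP1*, chr4:121227491-121227590 (- strand) and chr4:121164328-121164427 (- strand) for *TNIP3*, chr16:50741852-50741951 (+ strand) for *CYLD* and chr14:102777349-102777448 (+ strand) for *TRAF3*.
TNFAIP3: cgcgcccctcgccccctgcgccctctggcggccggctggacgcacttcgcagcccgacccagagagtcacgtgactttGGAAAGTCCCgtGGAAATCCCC
TNIP1: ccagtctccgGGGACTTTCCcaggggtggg
TNIP3, first start: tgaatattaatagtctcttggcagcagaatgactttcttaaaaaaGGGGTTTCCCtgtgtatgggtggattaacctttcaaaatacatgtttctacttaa
TNIP3, last start: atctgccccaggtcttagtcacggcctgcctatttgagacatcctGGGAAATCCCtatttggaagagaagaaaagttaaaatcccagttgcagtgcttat
CYLD: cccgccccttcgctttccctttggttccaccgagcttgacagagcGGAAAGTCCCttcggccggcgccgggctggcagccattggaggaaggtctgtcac
TRAF3: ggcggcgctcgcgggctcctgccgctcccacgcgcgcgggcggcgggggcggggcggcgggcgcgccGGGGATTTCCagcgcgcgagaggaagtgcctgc

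*TNFAIP3* carried 2 matches next to each other. The match of *TRAF3* ended 24 bases before its start, that of *TNIP1* ended 33 bases before one of its 2 starts, and that of *CYLD* ended 180 bases before one of its 3 starts. *TNIP3* held a match before 2 of its 3 starts, 53 and 52 bases upstream. No match was found in these windows before *TNIP2*, *TRAF1*, *TRAF2*, *OTULIN* or *MALT1*. All 5 genes with a match rose at least 2-fold in every stimulated group, as described next, and so did *TRAF1*, which had none in the window. The search was made with the rises known, and a link between matches and rises was not tested. A match is a run of letters in the reference and not evidence of binding, and its absence says nothing about the factor.

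Most of the 10 genes rose in THP-1 cells given BEVs of either species, and none fell. A differentially expressed gene (DEG) had a Benjamini-Hochberg adjusted p of at most 0.01 in edgeR's quasi-likelihood test and a change of at least 2-fold. By this rule 7 of the 10 genes rose in each *E. coli* group (EUC and EPL) and 6 in each *S. aureus* group (SUC and SPL), against 9.43%, 9.38%, 6.82% and 7.76% of all tested genes. *TNFAIP3*, *TNIP1*, *TNIP3*, *CYLD*, *TRAF1* and *TRAF3* were DEGs in all 4 stimulated groups, and *MALT1* in EUC and EPL. With the adjusted p alone, 8, 8, 7 and 7 genes rose, against 16.5%, 16.0%, 12.4% and 13.3% of all tested genes, and 0 of the 10 fell, against 14.0%, 13.2%, 9.15% and 10.6%. Over the 10 genes the median log2 fold changes were 1.68 and 1.71 in EUC and EPL and 1.48 and 1.51 in SUC and SPL, while that of all tested genes lay between -0.01 and 0.01. The 4 comparisons share the NC libraries and are not independent of each other. In RNA of whole cultures, a larger number of responding cells and more RNA per cell cannot be told apart.

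**Figure D1:**
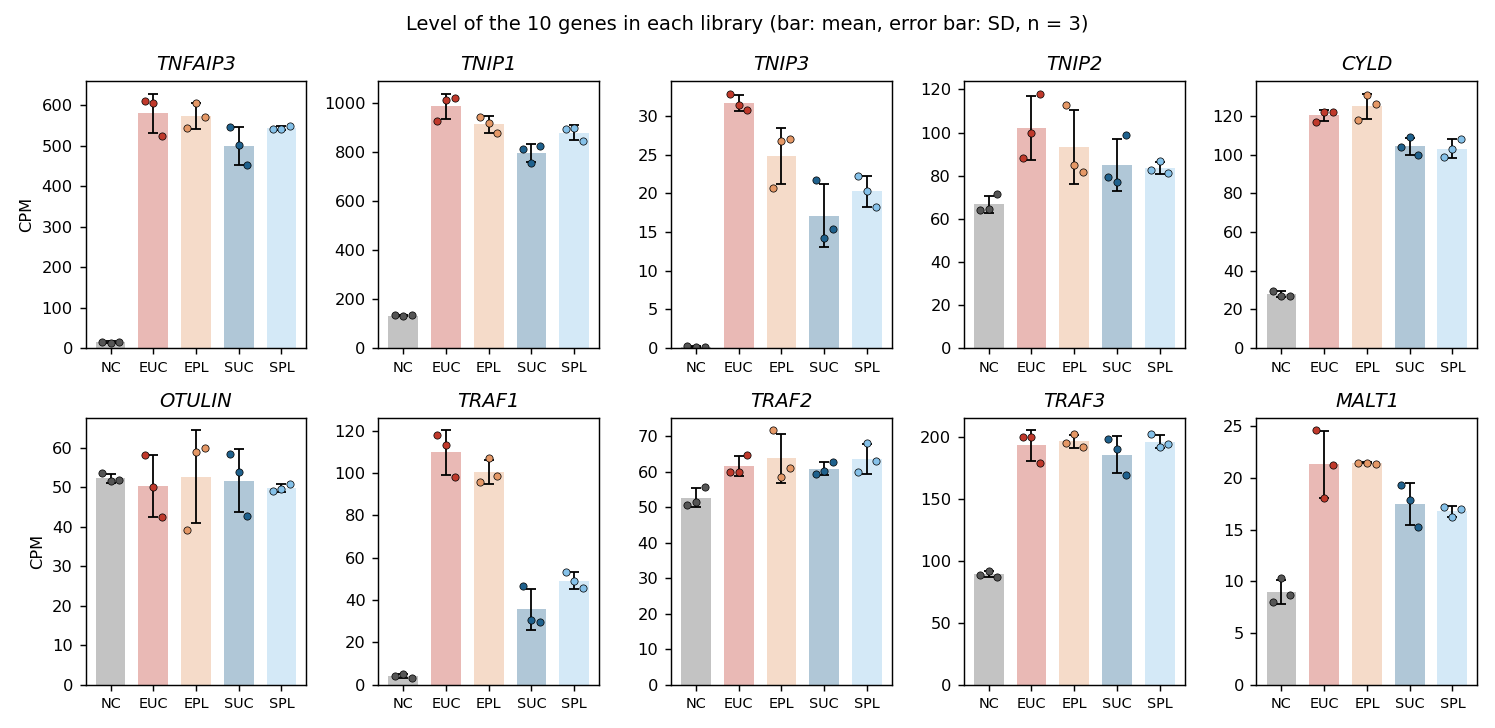
Levels of the 10 genes in CPM (vertical axes, each starting at 0) in the 5 groups. Points are libraries, bars are group means and error bars are SD (n = 3). The 3 NC libraries of every gene but *OTULIN* lie below all 12 stimulated libraries, by a small margin for *TNIP2* and *TRAF2*, and those of *OTULIN* lie among them. The share of all tested genes that separate in this way was not counted, so the separation is not a result about these genes.

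*TNFAIP3* (ENSG00000118503, chromosome 6, 137867214 to 137883314, hg38) encodes A20, the enzyme that both removes and adds ubiquitin on signalling proteins. Its level was 16, 12.5 and 16 CPM in the 3 NC libraries. The EUC libraries had 611, 604 and 524 CPM, and the EPL libraries 543, 605 and 571 CPM. It was 545, 502 and 452 CPM in SUC and 541, 540 and 548 CPM in SPL. Every stimulated library was far above every NC library. The rise was 39.1-fold in EUC (95% interval 32.8 to 46.5, adjusted p = 3.56e-15), 38.6-fold in EPL (32.5 to 46.0), 33.7-fold in SUC (28.3 to 40.0) and 36.6-fold in SPL (30.8 to 43.6). The order of the group means was EUC, EPL, SPL and SUC, and each overlapped its neighbour in this order. Of its exon bases, 95 (1.5%) are shared with the antisense RNA *WAKMAR2*, which had 17 to 118 counts in a library.

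The 3 *TNIP* genes, which encode the ABIN proteins that bind ubiquitin chains and bring A20 to its targets, started from very different levels and rose by very different amounts. *TNIP1* (ENSG00000145901, chromosome 5, 151029945 to 151093577) encodes ABIN1, the best studied partner of A20. It stood at 134, 129 and 134 CPM in NC. With *E. coli* BEVs it reached 926, 1010 and 1020 CPM (EUC) and 941, 919 and 875 CPM (EPL). With *S. aureus* BEVs it reached 811, 753 and 823 CPM (SUC) and 894, 897 and 844 CPM (SPL). No stimulated library overlapped NC, and the SUC libraries were all below the SPL libraries. The log2 fold changes were 2.89 ± 0.0755 (SE) in EUC and 2.78 ± 0.0752 in EPL, and 2.58 ± 0.0746 and 2.73 ± 0.0750 in SUC and SPL, with adjusted p-values of edgeR between 1.08e-14 and 6.19e-14.

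*TNIP3* (ENSG00000050730, chromosome 4, 121131408 to 121227466), which encodes ABIN3, was nearly absent without BEVs. It had 4, 3 and 3 counts in the NC libraries, a mean of 0.204 ± 0.0452 CPM (SD, n = 3). It had 32.9, 31.4 and 30.8 CPM in EUC and 20.7, 26.8 and 27.1 CPM in EPL. It had 21.8, 14.2 and 15.4 CPM in SUC and 22.2, 20.3 and 18.3 CPM in SPL. The 3 EUC libraries were above all others, while EPL, SUC and SPL overlapped. Its fitted rise was the largest of the 10 genes, at 151-fold in EUC (95% interval 103 to 221), 118-fold in EPL (80.3 to 174), 81.5-fold in SUC (54.6 to 122) and 96.3-fold in SPL (65 to 143). These folds rest on 10 counts over the 3 NC libraries.

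*TNIP2* (ENSG00000168884, chromosome 4, 2741648 to 2756342), which encodes ABIN2, a partner of the TPL2 kinase, rose little. Its NC libraries had 64.1, 64.6 and 71.4 CPM. The EUC libraries had 88.4, 100 and 118 CPM, the EPL libraries 113, 85.1 and 81.9 CPM, the SUC libraries 79.2, 76.9 and 99 CPM and the SPL libraries 82.7, 86.7 and 81.1 CPM. All 12 stimulated libraries were above the NC libraries. It passed the adjusted p in EUC (1.53-fold, adjusted p = 0.00105) and EPL (1.40-fold, adjusted p = 0.00671) with edgeR, but was short of 2-fold. In SUC it was 1.27-fold (adjusted p = 0.0510) and in SPL 1.25-fold (adjusted p = 0.0658) by the same test. The EPL call was lost when any NC or SPL library, EUC2 or EPL1 was left out, with adjusted p-values from 0.0102 to 0.0449. In EUC, EPL and SUC the highest library was the one that stood apart.

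Of the 2 deubiquitinases, *CYLD* rose and *OTULIN* did not. *CYLD* (ENSG00000083799, chromosome 16, 50742050 to 50801935) encodes a tumour suppressor that removes linear and other ubiquitin chains. It stood at 29.7, 26.8 and 27.2 CPM in NC. It was at 117, 122 and 122 CPM (EUC) and 118, 131 and 126 CPM (EPL) with *E. coli* BEVs. It was at 104, 109 and 100 CPM (SUC) and 98.6, 103 and 108 CPM (SPL) with *S. aureus* BEVs. Replicates lay close together, and the *E. coli* libraries were all above the *S. aureus* libraries. The rise was 4.31-fold in EUC (95% interval 3.85 to 4.84), 4.48-fold in EPL (4.0 to 5.03), 3.75-fold in SUC (3.34 to 4.20) and 3.70-fold in SPL (3.30 to 4.14), with adjusted p-values of edgeR of at most 4.19e-12. The antisense RNA *CYLD-AS1* shares 54 exon bases (0.4%) with it and had 9 to 67 counts.

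*OTULIN* (ENSG00000154124, chromosome 5, 14664664 to 14699850) encodes a deubiquitinase for linear chains only. Its level was 53.6, 51.5 and 51.9 CPM in NC. The *E. coli* libraries had 58.3, 50.1 and 42.5 CPM (EUC) and 39.1, 59.0 and 59.9 CPM (EPL), and the *S. aureus* libraries 58.4, 53.9 and 42.8 CPM (SUC) and 49.1, 49.5 and 50.9 CPM (SPL). The NC libraries lay inside the ranges of EUC, EPL and SUC and just above that of SPL. The folds were 0.962 and 1.01 in EUC and EPL and 0.988 and 0.952 in SUC and SPL, with edgeR's adjusted p between 0.763 and 0.969. The 95% intervals lay between 0.766-fold and 1.25-fold in all 4 groups.

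*TNIP2* and *OTULIN* deviated in opposite directions in the libraries that stood apart. EUC3, EPL1 and SUC3 had the highest *TNIP2* of their groups, by 0.21, 0.29 and 0.23 on the log2 scale above the group mean. The same libraries had the lowest *OTULIN*, at deviations of -0.23, -0.40 and -0.26. The pattern was not particular to this pair. EUC3, EPL1 and SUC3 also had the highest *TNIP1* and *TRAF2* of their groups and the lowest *TNFAIP3* and *TRAF1*. The GC content of the exons was 60.6% in *TNIP2*, 54.4% in *TNIP1* and 61.3% in *TRAF2*. It was 43.0% in *OTULIN*, 48.2% in *TNFAIP3* and 55.7% in *TRAF1*. *MALT1* (38.1%), *CYLD* (38.7%), *TNIP3* (41.5%) and *TRAF3* (54.0%) did not keep to one end of their groups in all 3 libraries. The part of base composition in this pattern was not tested. Without the 3 libraries, *TNIP2* was at log2 0.50, 0.33, 0.23 and 0.33 in EUC, EPL, SUC and SPL, and the SPL change then passed the test (adjusted p = 0.000133). *OTULIN* was then at 0.05, 0.19, 0.11 and -0.07, with no adjusted p of 0.01 or less.

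**Figure D2:**
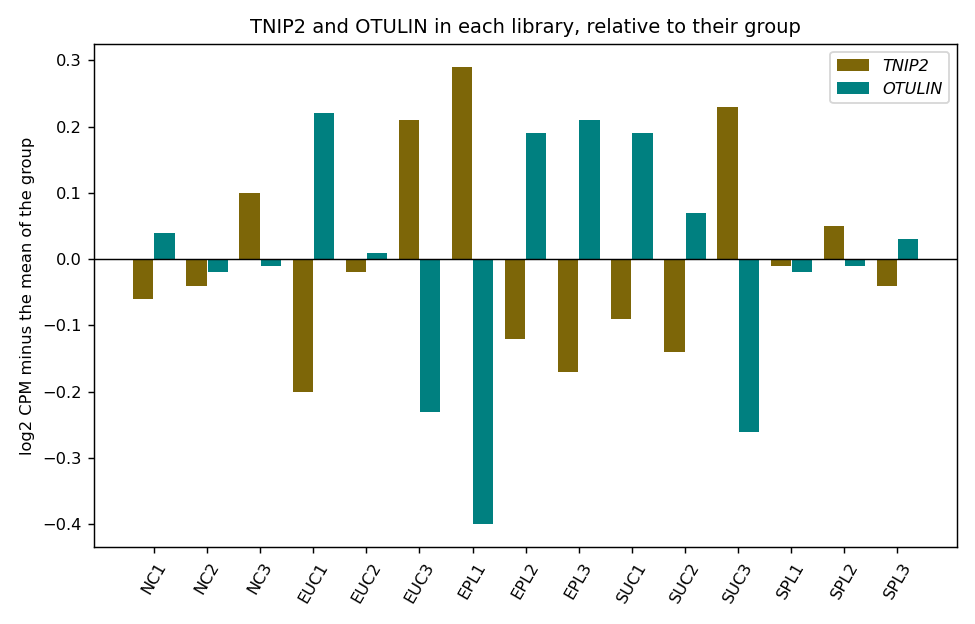
Log2 CPM of *TNIP2* and *OTULIN* minus the mean of the group (vertical axis) in each of the 15 libraries (horizontal axis). In EUC3, EPL1 and SUC3 *TNIP2* is the highest of its group and *OTULIN* the lowest, down to -0.40 in EPL1. *TNIP1*, *TRAF2*, *TNFAIP3* and *TRAF1*, which also lie at one end of their groups in these libraries, are not drawn.

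The TRAF genes ranged from a strong rise to no call. *TRAF1* (ENSG00000056558, chromosome 9, 120902393 to 120929173), which encodes the TRAF that binds TRAF2 and cIAP ligases without being a ligase itself, had 4.29, 4.94 and 3.28 CPM in NC. It had 118, 113 and 98.0 CPM in EUC and 95.8, 107 and 98.5 CPM in EPL. It had 46.7, 30.5 and 29.8 CPM in SUC and 53.2, 48.9 and 45.6 CPM in SPL. All *E. coli* libraries were above all *S. aureus* libraries, which in turn were above NC. The rise was 26.2-fold in EUC (95% interval 20 to 34.2), 24.0-fold in EPL (18.4 to 31.4), 8.54-fold in SUC (6.55 to 11.1) and 11.8-fold in SPL (9.05 to 15.4), with adjusted p-values of edgeR between 1.34e-12 and 4.69e-10.

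*TRAF2* (ENSG00000127191, chromosome 9, 136881912 to 136926607) encodes the adaptor that recruits cIAP ligases to TNF receptors. It had 50.6, 51.6 and 55.7 CPM in NC, and between 58.5 and 71.6 CPM in the 12 stimulated libraries, all of them above NC. NC3 and EUC2 both had 934 counts of *TRAF2*, so this separation depends on the library sizes and TMM factors. The log2 fold changes of 0.23, 0.28, 0.21 and 0.28 in EUC, EPL, SUC and SPL did not reach an adjusted p of 0.01 with edgeR (0.0484, 0.0187, 0.0847 and 0.0222). The SPL value passed without EPL1 (adjusted p = 0.00862) and without the 3 libraries that stood apart (0.00103).

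*TRAF3* (ENSG00000131323, chromosome 14, 102777449 to 102911500), whose product keeps NIK low and also serves in interferon induction, rose about 2-fold. It had 88.7, 91.7 and 86.9 CPM in NC, and between 169 and 202 CPM in the stimulated libraries. The folds were 2.17 in EUC (95% interval 1.93 to 2.43), 2.2 in EPL (1.96 to 2.47), 2.09 in SUC (1.86 to 2.34) and 2.2 in SPL (1.96 to 2.46), all 4 called by edgeR with adjusted p-values of at most 9.51e-09. The folds were just past the 2-fold line, and every interval also held values below it.

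*MALT1* (ENSG00000172175, chromosome 18, 58671465 to 58754477), the paracaspase gene, was the lowest of the 10 per length of exon in stimulated cells. It had 8.0, 10.3 and 8.70 CPM in NC. The *E. coli* libraries had 24.6, 18.1 and 21.3 CPM (EUC) and 21.5, 21.5 and 21.4 CPM (EPL). The *S. aureus* libraries had 19.3, 17.9 and 15.3 CPM (SUC) and 17.2, 16.2 and 17 CPM (SPL). All stimulated libraries were above NC. The folds were 2.37 and 2.38 in EUC and EPL and 1.94 and 1.87 in SUC and SPL, with edgeR's adjusted p of 4.7e-07, 4.61e-07, 1.71e-05 and 3.04e-05, so that the *S. aureus* groups passed the test but not the 2-fold line. Both crossed it without NC2 (log2 1.07 in SUC and 1.02 in SPL), and SUC also without SUC3 (1.04).

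**Figure D3:**
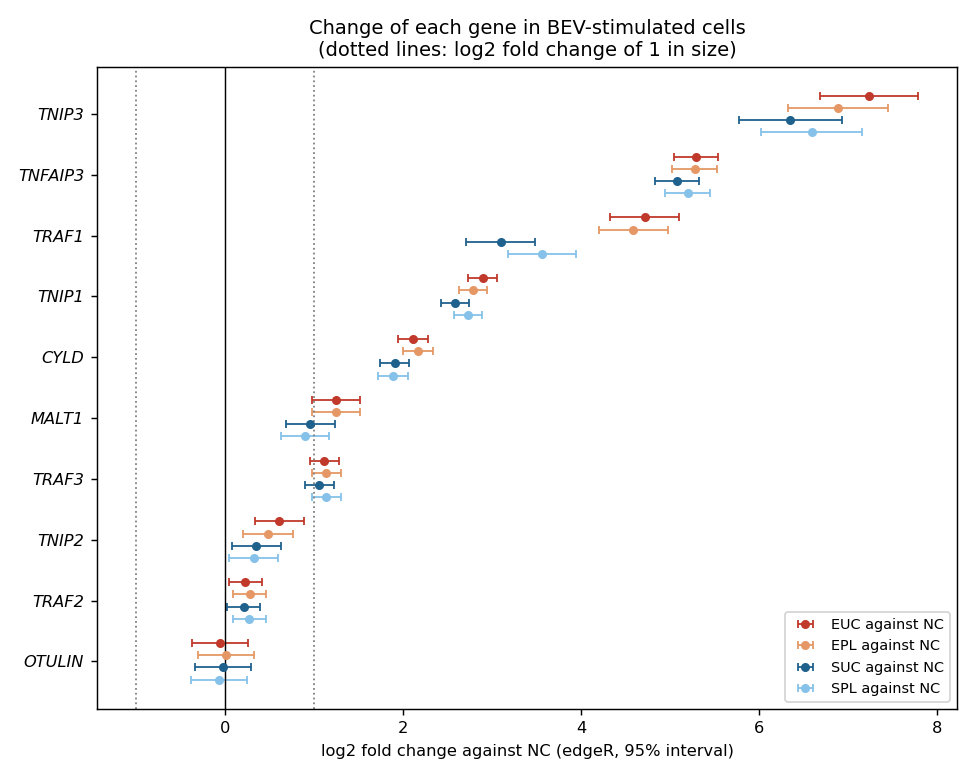
Log2 fold change against NC (horizontal axis) of the 10 genes in EUC, EPL, SUC and SPL. Points are edgeR estimates, bars are 95% intervals (n = 3 libraries a group) and dotted lines mark a change of 2-fold. The points run from 7.24 for *TNIP3* in EUC to values around 0 for *OTULIN*.

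Compared per length, the genes changed their order with stimulation. CPM divided by the kilobases of exon (CPM per kb) sets the levels of different genes roughly on one scale. The length was that of all annotated exons of a gene together, from 2.652 kb for *TNIP2* to 16.225 kb for *MALT1*. It was not that of the transcripts expressed, which were not determined. Orders, shares and ratios between genes depend on these lengths, while changes of one gene between groups do not. In NC *TNIP2* was highest at 25.2 ± 1.54 CPM per kb (SD, n = 3), followed by *TNIP1* at 22.8 ± 0.498 and *TRAF2* at 14.4 ± 0.737. *TNFAIP3* at 2.30 ± 0.314 and *CYLD* at 2.15 ± 0.121 overlapped, and *TRAF1*, *MALT1* and *TNIP3* were all below 1 CPM per kb on average. In the stimulated groups *TNIP1* led with means of 137 to 170 CPM per kb, followed by *TNFAIP3* with 77.6 to 90.0 and *TNIP2* with 31.5 to 38.5. *TRAF1* came next in EUC (24.5 ± 2.33) and EPL (22.4 ± 1.31), but stood below *TRAF2* and *TRAF3* in SUC (7.97 ± 2.14) and SPL (11 ± 0.851). *TRAF2* and *TRAF3* overlapped in every stimulated group. *TNIP3* overlapped *OTULIN* in EPL, SUC and SPL, and *TRAF1* overlapped *CYLD* in SUC.

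The shares within gene families shifted with these levels. *TNIP1* made up 47.6% ± 1.32 (SD, n = 3) of the summed CPM per kb of the 3 *TNIP* genes in NC and 78.4% ± 1.27, 79.1% ± 1.64, 79.0% ± 1.35 and 80.4% ± 0.186 in EUC, EPL, SUC and SPL. *TNIP2* went from 52.3% ± 1.35 to between 16.7% and 18.4%, although its own level was higher in every stimulated library. *TNIP3* stayed below 4% on average in every group, for all its fold change. The ratio of *TRAF1* to *TRAF2* per kb was 0.0654 ± 0.0155 in NC. It was 1.46 ± 0.196 and 1.3 ± 0.20 in EUC and EPL, and 0.483 ± 0.141 and 0.636 ± 0.0795 in SUC and SPL. It was above 1 in every *E. coli* library and below 1 in every *S. aureus* library. *TNFAIP3* went from 0.10 ± 0.0117 of the level of *TNIP1* in NC to between 0.531 and 0.566 in the 4 stimulated groups, whose ranges overlapped. *CYLD* was at 0.360 ± 0.0126 of the *OTULIN* level per kb in NC and at 1.38 to 1.66 times it in the stimulated groups.

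**Figure D4:**
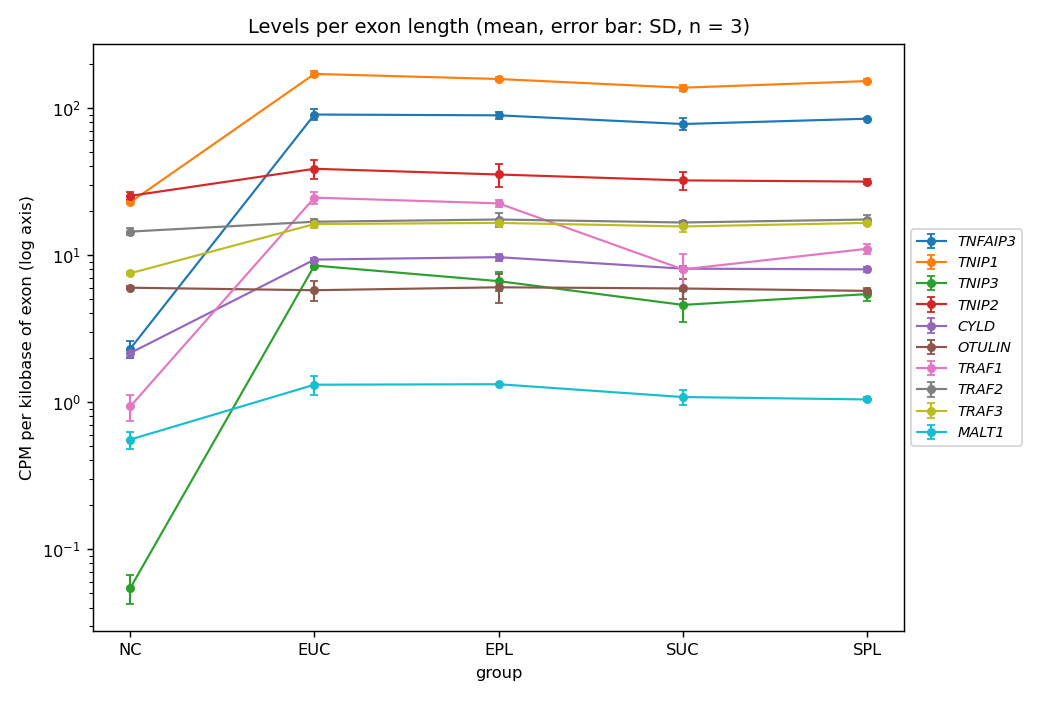
CPM per kb of exon on a log axis (vertical) for the 10 genes in the 5 groups (horizontal). Points are means, error bars are SD (n = 3), and lines only join the points of a gene. *TNIP2* leads in NC, while *TNIP1* and *TNFAIP3* lead in all 4 stimulated groups.

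Between the species, *TRAF1* was the gene that differed most. The mean of the *E. coli* groups was compared with that of the *S. aureus* groups, at 1 and 10 μg/mL. *TRAF1* averaged 105 CPM with *E. coli* and 42.5 CPM with *S. aureus* BEVs, 2.50-fold higher with *E. coli* (95% interval 2.15 to 2.91, adjusted p of edgeR = 9.93e-07). It was the only one of the 10 called as a DEG here, against 0.663% of all tested genes called higher with *E. coli*. The difference held in both preparations, at 3.07-fold for EUC against SUC (95% interval 2.47 to 3.82, adjusted p of edgeR = 7.32e-06) and 2.04-fold for EPL against SPL (1.64 to 2.52, adjusted p of edgeR = 0.00254). Over the 21 alternatives the log2 difference stayed between 1.26 and 1.43.

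With the adjusted p alone, 3 of the 10 genes were higher with *E. coli*, against 2.87% of all tested genes, and 0 were lower, against 1.00%. Beside *TRAF1* these were *TNIP3* and *CYLD*. *TNIP3* averaged 28.3 CPM with *E. coli* and 18.7 CPM with *S. aureus* BEVs, 1.51-fold higher (95% interval 1.3 to 1.75, adjusted p of edgeR = 0.00111), and its libraries overlapped. It was 1.85-fold higher in EUC than SUC (adjusted p of edgeR = 0.00102) and 1.23-fold in EPL over SPL (95% interval 0.995 to 1.51, adjusted p of edgeR = 0.608). *CYLD* was 1.18-fold higher (95% interval 1.10 to 1.28, adjusted p of edgeR = 0.00727), with all 6 *E. coli* libraries above all 6 *S. aureus* libraries. Its call rested on a narrow margin, since leaving out any library but EPL1 gave adjusted p-values of 0.0102 to 0.0372.

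The other genes were not called between the species. *TNIP1* was 1.13-fold higher with *E. coli* (95% interval 1.05 to 1.22, adjusted p of edgeR = 0.0343) and passed without the 3 libraries that stood apart (adjusted p = 0.00939). *MALT1* was 1.25-fold higher (1.10 to 1.42, adjusted p of edgeR = 0.0337). *TNFAIP3* was 1.11-fold higher (1.00 to 1.22, adjusted p of edgeR = 0.287) and *TNIP2* 1.16-fold higher (1.01 to 1.32, adjusted p of edgeR = 0.240). The folds of *TRAF2*, *TRAF3* and *OTULIN* were 1.01, 1.02 and 1.01, and their intervals lay between 0.869 and 1.18.

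**Figure D5:**
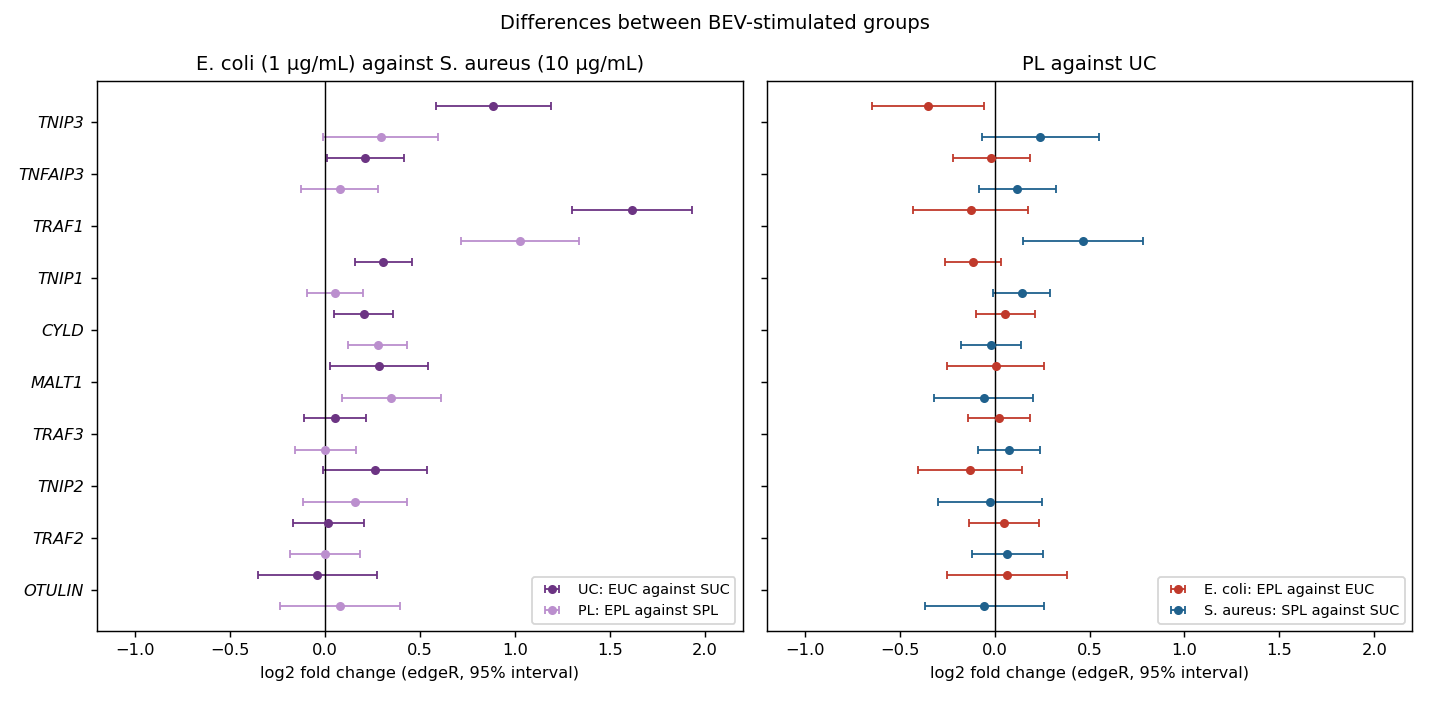
Log2 fold change (horizontal axes) between stimulated groups for the 10 genes, for *E. coli* against *S. aureus* within each isolation method (left) and PL against UC within each species (right). Points are edgeR estimates and bars 95% intervals (n = 3 libraries a group). *TRAF1* lies at 1.62 and 1.03 on the left, and every interval on the right stays within 2-fold.

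Between the isolation methods none of the 10 genes was called, and the intervals bound the differences. For *E. coli* BEVs, 0 of the 10 genes were DEGs in EPL against EUC with edgeR, as were 0% of all tested genes. At an unadjusted p under 0.05 there were 604 genes and 1 of the 10. This was *TNIP3*, at 24.9 CPM in EPL and 31.7 CPM in EUC (0.784-fold, 95% interval 0.639 to 0.963, adjusted p = 0.947). All 10 intervals lay between 0.639 and 1.3-fold. For *S. aureus* BEVs, 0 of the 10 were DEGs in SPL against SUC, where 0.00581% of all tested genes were, and their intervals lay between 0.775 and 1.72-fold. The upper end belonged to *TRAF1*, at 49.2 CPM in SPL and 35.7 CPM in SUC (1.38-fold, 95% interval 1.11 to 1.72, adjusted p of edgeR = 0.775). SUC1, at 46.7 CPM, lay inside the SPL range, and without it the log2 difference was 0.71 rather than 0.47 (adjusted p = 0.0721). DESeq2 also called none of the 10 in either comparison.

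The difference between PL and UC was then compared between the species. With edgeR 0 of the 10 genes were DEGs in this interaction, as were 0% of all tested genes, and 659 genes and 3 of the 10 had an unadjusted p under 0.05. These were *TNIP1* (log2 -0.25, 95% interval -0.464 to -0.045), *TNIP3* (-0.59, -1.02 to -0.165) and *TRAF1* (-0.59, -1.03 to -0.155), all with an adjusted p of 1. For each of the 3, PL was lower than UC with *E. coli* and higher with *S. aureus* BEVs. DESeq2 called none of the 10 either.

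Around these genes, 46 further genes of the same pathway in 7 lists were followed, of which 45 were tested. Of them 8 were DEGs in EUC and 8 in EPL, with 5 in SUC and 6 in SPL, all higher than in NC, against 9.43, 9.38, 6.82 and 7.76% of all tested genes. With the adjusted p alone, 20, 20, 17 and 18 rose, where 16.5, 16.0, 12.4 and 13.3% of all tested genes did. By the same rule 2, 3, 2 and 2 fell, where 14.0, 13.2, 9.15 and 10.6% of all tested genes did. Their median log2 fold changes were 0.45, 0.34, 0.34 and 0.21, and the medians of all tested genes lay between -0.007 and 0.007. *BIRC3*, which encodes the cIAP2 ligase that TRAF1 and TRAF2 bind, had the largest rise, from 0.179 ± 0.115 CPM (9 counts over the 3 NC libraries) to 43.0 ± 4.95 and 43.2 ± 2.73 CPM in EUC and EPL and 28.6 ± 0.951 and 32.2 ± 1.97 CPM in SUC and SPL (SD, n = 3). It was higher with *E. coli*, by 0.51 on the log2 scale (adjusted p of edgeR = 0.000356). Both other inhibitor of apoptosis ligases, *BIRC2* and *XIAP*, rose by adjusted p in all 4 groups, with log2 changes of 0.49 to 0.65 and 0.43 to 0.61.

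In the list of A20 partners and other editors, 3 of 9 genes were DEGs in EUC and EPL and 2 in SUC and SPL, all higher, against 9.43, 9.38, 6.82 and 7.76% of all tested genes. *ZC3H12A*, which encodes the MCPIP1 ribonuclease, went from 14.3 ± 1.47 CPM to between 316 and 338 CPM on average. *N4BP1*, a ubiquitin-binding inhibitor of NF-kappa B and a substrate of MALT1, went from 27.6 ± 1.48 CPM to 105 ± 2.59 and 109 ± 10.9 CPM with *E. coli* and to 71.9 ± 6.82 and 81.7 ± 4.86 CPM with *S. aureus* BEVs, a species difference of 0.48 on the log2 scale (adjusted p of edgeR = 0.000115). *TAX1BP1* and *ITCH*, which work with A20, had log2 changes of -0.33 to -0.25 and 0.20 to 0.28. Of these 8 changes only that of *TAX1BP1* in EPL passed the adjusted p, at 0.00593.

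Of the 9 other TRAFs and TRAF binders, 2 were DEGs in EUC, EPL and SPL and 1 in SUC, all higher, beside the same shares of all tested genes (9.43, 9.38, 7.76 and 6.82%). Without EUC3, EPL1 and SUC3 the count in SUC was 0. *TANK*, a TRAF binder, rose by 1.35, 1.26, 1.03 and 1.09 on the log2 scale in EUC, EPL, SUC and SPL, and was the gene called in SUC. *TRAF3IP2*, the IL-17 receptor adaptor, rose by 1.48, 1.46, 0.81 and 1.07, and was 0.53 higher with *E. coli* (adjusted p of edgeR = 0.000113). *TRAF4*, *TRAF5* and *TRAF6* passed in no group. Among the 12 kinases and their adaptors, 2 were DEGs in EUC and EPL and 1 in SUC and SPL. By adjusted p alone 7, 7, 5 and 7 of the 12 rose and 1 fell in each group, against 16.5, 16.0, 12.4 and 13.3% higher and 14.0, 13.2, 9.15 and 10.6% lower among all tested genes. *IKBKE* was a DEG in all 4 groups, from 47.2 ± 3.35 CPM to between 185 and 217 CPM on average. *TAB2*, an adaptor of the TAK1 kinase, rose by 1.14 and 1.16 on the log2 scale in EUC and EPL, where it was a DEG, and by 0.885 and 0.97 in SUC and SPL. *RIPK1*, *TBK1* and *CHUK*, which encode kinases of the pathway, rose by adjusted p in all 4 groups, by 0.53 to 0.78, 0.40 to 0.58 and 0.34 to 0.52 on the log2 scale. *TAB1*, another adaptor of TAK1, was the gene that fell, by 0.46 to 0.58 in the 4 groups.

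The linear chain ligase LUBAC with its cofactors, the ubiquitin conjugating enzymes and the CARD and BCL10 partners of MALT1 held no DEG in any group. Among all tested genes, 9.43, 9.38, 6.82 and 7.76% were DEGs with a rise in EUC, EPL, SUC and SPL. With only 4 tested genes in each list, the absence cannot be told apart from these shares. *RBCK1* of LUBAC rose by adjusted p in all 4 groups, by 0.36 to 0.55, as did the conjugating enzyme gene *UBE2D3*, by 0.40 to 0.51. Nothing else in the LUBAC and conjugating enzyme lists passed in any group. The log2 changes were -0.525 to -0.447 for *SHARPIN*, 0.50 to 0.77 for *RNF31* and -0.17 to 0.04 for *SPATA2*. Those of *UBE2N*, *UBE2L3* and *UBE2V1* were -0.02 to 0.11, -0.03 to 0.03 and 0.13 to 0.345. *CARD9*, an adaptor that works with MALT1 in myeloid cells, fell in all 4, by 0.49 to 0.67, and no other gene of its list passed.

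The genes most like *TNFAIP3* were sought by the root mean square distance between log2 changes from the NC mean over the 12 stimulated libraries, among 13268 genes of at least 1 CPM in NC. *SLAMF8* was nearest at a distance of 0.204, and *GBP2* at 0.298, *MGLL* at 0.308 and *IFIT1* at 0.314 were also among the 5 nearest. *TNFAIP3* itself was 4.93 to 5.36 above the NC mean on the log2 scale in these libraries.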

How the data were processed

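The 15 RNA libraries of THP-1 cells were assigned to the groups NC, EUC, EPL, SUC and SPL by their titles. The authors sequenced both ends, checked reads with FastQC 0.11.5, aligned them to hg38 with HISAT2 2.1.0 and deposited whole-number read counts per Ensembl gene, without normalization. The processing notes of the submitters also name featureCounts, StringTie 1.3.3b and DESeq 1.28.0 without a role, and no source used here gives the strand setting or annotation of the counting, which leaves counts of genes with antisense partners uncertain. Other columns of values were not present in the table (0 unused).

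The deposited counts were analysed with edgeR 4.0.16 in R 4.3.3 (filterByExpr, TMM, glmQLFit and glmQLFTest) in one fit of all 15 libraries. P-values were adjusted over 17198 genes by the Benjamini-Hochberg method. Each standard error (SE) was the size of the log2 fold change divided by the square root of the F statistic of its test. The 95% intervals were built from these standard errors. The DEG thresholds (adjusted p 0.01, log2 fold change 1 in either direction) are those of the study, which applied them with DESeq2. Replicates had a common biological coefficient of variation of 0.118. Log2 CPM used a prior count of 2. Exon lengths, GC content, overlaps and positions came from GENCODE release 44 (hg38) and promoters from RefSeq (GRCh38.p14).

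The 10 genes, the lists around them and the tests were chosen with earlier results of these data known. Named were the 10 genes, each gene of the surrounding lists that was a DEG in at least 3 of the 4 stimulated groups, and the 5 genes nearest to *TNFAIP3*. One of these 5 and some cell type markers are not reported here. *BIRC2*, *XIAP*, *RBCK1*, *SHARPIN*, *RNF31*, *SPATA2*, *UBE2D3*, *UBE2N*, *UBE2L3*, *UBE2V1*, *CARD9*, *TAB1*, *TAB2*, *RIPK1*, *TBK1*, *CHUK*, *TAX1BP1*, *ITCH*, *TRAF4*, *TRAF5* and *TRAF6* are named outside this rule, with their values known. The alternatives were DESeq2 1.42.0, RLE size factors, no filter on low counts, a replicate block, only the groups compared, each library left out and, added after seeing the data, EUC3, EPL1 and SUC3 left out together. The fit was tested on simulated counts. No 2 libraries of a group agreed within sampling noise.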

Additional observations from a re-analysis of the deposited data

How the results depend on the processing

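Over the 21 alternatives, all 546 counts of called genes among the 10 stayed within 1.5 times their value. That limit admits a fall from 3 to 2, as in the count of genes higher with *E. coli* by adjusted p when 1 library was left out. The 504 values of the 6 genes that were DEGs in every stimulated group kept their direction and call. Other calls moved. *TNIP2* in EPL lost its adjusted p in 8 alternatives, and *CYLD* between the species in 17, among them no filter on low counts (adjusted p = 0.0726), a replicate block (0.0104) and only the groups compared (0.0191). *TNIP2* in SUC passed without the filter (adjusted p = 0.00836), *TNIP2* and *TRAF2* in SPL with only the groups compared (2.13e-05 and 0.000522), and *TNIP1* between the species with DESeq2 (0.000855). Log2 differences near 0 changed sign. Leaving out 1 library at a time gave *OTULIN* -0.17 to 0.05 in EUC, -0.10 to 0.18 in EPL and -0.11 to 0.10 in SUC, and between the species *OTULIN* -0.05 to 0.11, *TRAF2* -0.04 to 0.04 and *TRAF3* 0.00 to 0.04. *TRAF2* between the species was at 0.00 without the filter. Without EUC3, EPL1 and SUC3, *OTULIN* was at 0.05 in EUC and 0.11 in SUC, *TRAF2* between the species at -0.05, and 0 rather than 1 of the other TRAFs and TRAF binders was a DEG in SUC.

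Over all genes, those that fell in SPL by adjusted p numbered 1830, 3214 with only the groups compared and 2951 without EUC3, EPL1 and SUC3. Genes lower with *E. coli* numbered 172, 286 with DESeq2, 269 without the filter, 102 with only the groups compared, 575 without EUC3, EPL1 and SUC3 and 102 to 219 with 1 library left out (102 without SUC2, 108 without SPL2), and those higher numbered 493, or 874 without EUC3, EPL1 and SUC3. For SPL against SUC, 1 DEG became 2 with DESeq2, without the filter, with only the groups compared and without EUC3, EPL1 and SUC3, and 1 to 2 with 1 library left out (2 without EUC1, EUC3 or SUC1). For the interaction, 0 DEGs became 3, 4, 0 and 4 in the same order, and 0 to 1 with 1 library left out (1 without SUC1). The causes were not tested.

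Replicate numbers showed no clear pairing of the libraries. Deviations of same-numbered libraries of different groups correlated at -0.452 to 0.525, with 7 of 30 pairs over 0.1. For libraries of different numbers the range was -0.484 to 0.488, with 12 of 60 pairs over 0.1. Of the 15 libraries, 7 correlated best with one of their own number. With the replicate block the counts of DEGs among the 10 were 7, 7, 6 and 6 as before, and *CYLD* between the species was the 1 call lost. With 3 libraries a group, the 1.16- to 1.21-fold changes of *TRAF2* against NC were not called, and *TNIP3* in NC rests on 10 counts.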
